A study of Mus musculus with 6 samples.

Results

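The transcripts of the mouse mitochondrial genome were followed in whole B16F10 grafts, tumours of a pigmented mouse melanoma line placed under the lining of the tongue in immune-competent C57BL/6J animals. Members were all genes whose symbol starts with mt-, and 37 of the 55487 genes in the count table met this rule: 13 protein genes, 2 ribosomal RNA (rRNA) genes and 22 transfer RNA (tRNA) genes. There were 6 libraries: 3 were controls, and in the other 3 the labels state that pain-sensing neurons supplying lymph nodes had been inhibited (inhibition below). All grafts were labelled wild type and grew in animals whose cervical nodes had received a retrograde virus 6 weeks before the cells were placed. By the design text the virus carried, behind a Trpv1 promoter, either mCherry alone or mCherry with hM4D(Gi), an engineered inhibitory receptor for the ligand deschloroclozapine, and the ligand was given 2 times per day for 12 days. The sample labels call the controls vehicle-treated, so whether they received the ligand is unclear, and the age of the animals is not stated. The virus was given to the nodes and not to the graft. Tissue outside the tumour had been removed, but tumour and host are both mouse, so mitochondrial RNA of melanoma cells and of host cells was counted together. In bulk tissue a change in the number of cells of a type and a change in RNA per cell cannot be told apart.

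Mitochondria keep a small circular genome of their own. Its protein genes encode core subunits of the respiratory chain, which pumps protons across the inner membrane, and of the ATP synthase that uses the gradient; the remaining subunits of these complexes come from nuclear genes. Both strands are transcribed into long precursors, and the tRNAs that lie between the other genes mark the places where the precursors are cut into separate mRNAs, rRNAs and tRNAs. Most of the mature mRNAs, and the rRNAs, carry short poly(A) tails. Melanoma cells vary in how far they rely on respiration or on glycolysis, and skeletal muscle, the main tissue of the tongue, is rich in mitochondria.

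Pieces of the mitochondrial genome have also been inserted into nuclear chromosomes, and such copies bear on which mitochondrial reads can be assigned to 1 place. Alignment of the annotated mitochondrial transcripts (GENCODE M21) to all annotated nuclear transcripts found 16 nuclear pseudogenes that copy a mitochondrial gene at an identity of at least 90%. Of these, 7 lay side by side at chr1:24611535-24616197 on GRCm38, the assembly that mm10 names, and matched the stretch chrM:6390-11042 at an identity of at least 99%. This stretch holds 6 protein genes whole (mt-Co2, mt-Atp8, mt-Atp6, mt-Co3, mt-Nd3 and mt-Nd4l) and 5 tRNA genes, and it takes in 31.3% of mt-Co1 and 63.6% of mt-Nd4. No annotated pseudogene covered mt-Atp8 or the 5 tRNAs, so their sequence within the copy was not compared here. To show how close the copies are, the central 60 bases of the best match are printed for mt-Co3 inside the stretch and for mt-Nd2 and mt-Cytb outside it, in the direction of the transcript, with bases that differ within a pair in capitals.
mt-Co3: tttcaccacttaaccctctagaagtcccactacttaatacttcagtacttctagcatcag
Gm28437: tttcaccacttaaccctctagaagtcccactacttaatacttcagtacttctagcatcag
mt-Nd2: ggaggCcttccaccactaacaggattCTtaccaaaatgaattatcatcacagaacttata
Gm13339: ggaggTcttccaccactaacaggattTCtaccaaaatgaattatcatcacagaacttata
mt-Cytb: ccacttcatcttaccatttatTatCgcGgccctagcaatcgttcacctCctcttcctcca
Gm11410: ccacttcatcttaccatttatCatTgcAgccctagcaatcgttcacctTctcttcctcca

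The mt-Co3 stretch (chrM:8968-9027, plus strand) and its chromosome 1 copy in Gm28437 (chr1:24613551-24613610, minus strand) differed at 0 of 60 bases. The mt-Nd2 stretch (chrM:4667-4726, plus strand) and Gm13339 (chr2:22590249-22590308, minus strand) differed at 3. The mt-Cytb stretch (chrM:14687-14746, plus strand) and Gm11410 (chr4:80004531-80004590, plus strand) differed at 4. Over their whole alignments the identities were 100% for Gm28437, 96.7% for Gm13339 and 92.9% for Gm11410. A read from the first pair carries no base that tells the mitochondrial gene from the nuclear copy.

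A second feature of the genome that touches the values is that neighbouring genes overlap. The last 43 bases of mt-Atp8 are also the first 43 bases of mt-Atp6; both encode subunits of the ATP synthase, and the overlap is printed in capitals within chrM:7907-7989 (plus strand).
mt-Atp8/mt-Atp6: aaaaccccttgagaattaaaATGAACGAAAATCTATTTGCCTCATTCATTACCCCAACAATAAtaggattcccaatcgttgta

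On the plus strand, mt-Nd4l and mt-Nd4 share 7 bases. On opposite strands, mt-Nd5 and mt-Nd6 share 14. How the authors' counting treated reads in such overlaps, and whether it used strand, was not given in the sources used here, so mt-Atp8, mt-Atp6, mt-Nd4l, mt-Nd4 and mt-Nd6 are uncertain in this respect.

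Mitochondrial transcripts took a larger part of the library in every inhibition graft than in any control. Their share of all counts was 3.38%, 3.92% and 3.50% in the controls and 4.55%, 4.09% and 4.79% in the inhibition grafts. The groups did not overlap, although control 2 and inhibition 2 lay close to each other. The means were 3.60% ± 0.287 and 4.48% ± 0.353 (SD, n = 3 per group), a difference of 0.881 percentage points and a fold of 1.24. In the same libraries 26 skeletal muscle markers held 0.111% to 0.239% of counts in controls and 0.286% to 0.481% under inhibition, and their part in the difference is taken up with the other marker lists at the end. The exact two-sided permutation test gave p = 0.1, the smallest that 3 against 3 can give (0.2 adjusted over the 4 shares of total, mRNA, rRNA and tRNA), so this test cannot place the difference past 0.05. Library totals were 14477277 to 20972494 counts, and the 95% Wilson intervals of these shares, which cover counting error only, reached at most 0.0108 percentage points to either side. Whether each sample was a different animal is not stated, so the p-values here describe the spread between these samples, which may be technical.

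**Figure D1:**
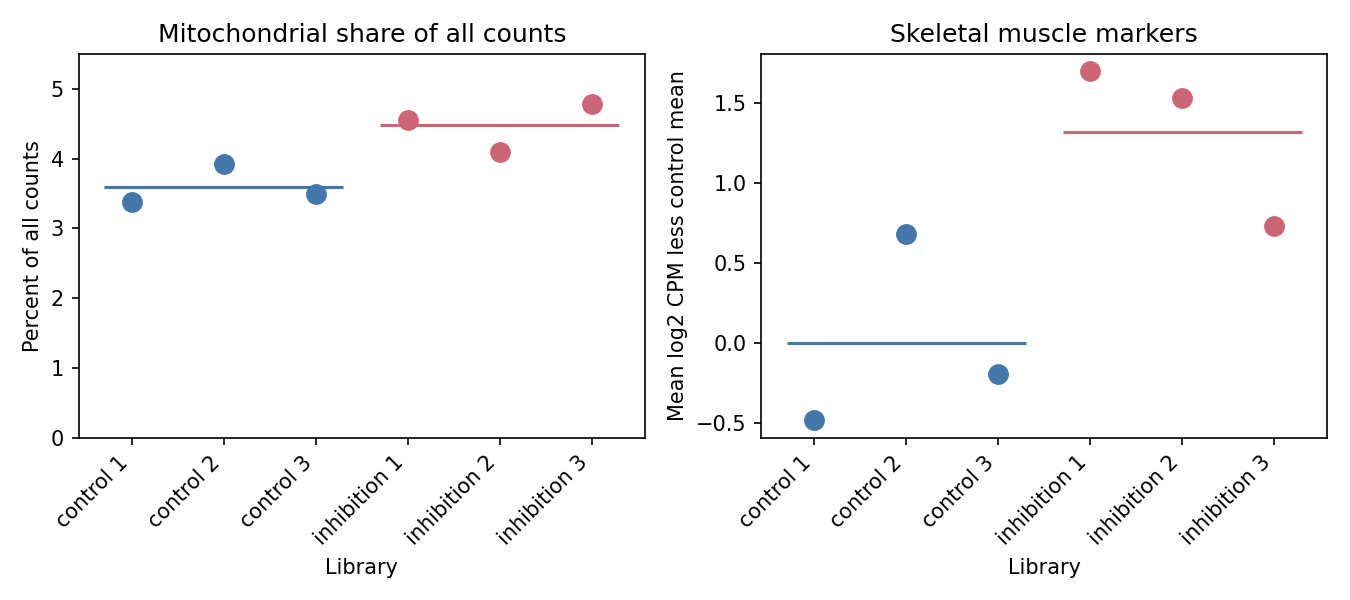
Left, percent of all counts that fell on the 37 mitochondrial genes, 1 point per library; right, the mean log2 CPM of 25 skeletal muscle markers less the control mean, for the same libraries. Horizontal lines are group means. The inhibition points on the left (4.09% to 4.79%) all lie above the controls (3.38% to 3.92%). Those on the right also all lie above the controls, although control 2 (0.68) and inhibition 3 (0.73) are close to each other.

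Almost all of this signal was mRNA. Protein genes held 3.59% ± 0.287 of the counts in controls and 4.48% ± 0.353 under inhibition (exact permutation p = 0.1, adjusted 0.2; n = 3 per group). The tRNA genes held 0.00360% ± 0.000363 and 0.00336% ± 0.000265 (exact permutation p = 0.4, adjusted 0.533; n = 3 per group), with overlapping groups. The rRNA genes held 7.76e-05% ± 6.89e-06 and 0.000102% ± 5.80e-05 (exact permutation p = 0.7, adjusted 0.7; n = 3 per group), again with overlap. The 1 rRNA that passed the count filter, mt-Rnr2, had a log2 fold change of 0.13 with a standard error of 0.53 (edgeR adjusted p = 0.923).

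The classes differed far more from each other than the groups did. The rRNAs of the small and large mitochondrial ribosomal subunits, mt-Rnr1 (chrM:70-1024) and mt-Rnr2 (chrM:1094-2675), held 34 and 59 counts over all 6 libraries. The mRNA that follows them on the same strand, mt-Nd1 (chrM:2751-3707), held 494327. Labels describe the libraries as made from mRNA by a standard Illumina protocol and do not say whether rRNA was removed; why the rRNAs stand so low was not tested. Nuclear RNAs that lack a poly(A) tail (small nuclear, nucleolar and Cajal body RNAs and replication histones) made up 58.7 to 85.2 counts per 1000000 library counts (CPM) in controls and 63.7 to 95.3 under inhibition. Only 17 of the 251 passed the count filter, with Hist1h1e at a log2 fold change of 1.22 (edgeR adjusted p = 0.349) and Snord104 at 0.50 (0.434); edgeR and DESeq2 called 0, and 0 had an unadjusted p under 0.05.

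Among the 22 tRNA genes, 16 had 0 counts in every library, which allows up to 0.143 to 0.207 CPM in a library. Another 5 held 10 counts between them, and mt-Tp, the proline tRNA, held the other 3701 of 3711 counts. The mt-Tp gene (chrM:15356-15422, minus strand) is the last annotated gene before the non-coding control region, where transcription starts and DNA replication is controlled. It is printed whole because it is the 1 tRNA with a usable signal.
mt-Tp: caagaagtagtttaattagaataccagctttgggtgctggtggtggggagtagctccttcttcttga

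The scaled level of mt-Tp, in CPM after TMM scaling (which adjusts library totals for their makeup and is used for all levels compared between groups below), was 37.1, 38.8 and 32.3 in controls and 36.0, 30.1 and 34.3 under inhibition. These values overlapped, and mt-Tp was the 1 tested member with a negative log2 fold change (-0.11, standard error 0.11, edgeR quasi-likelihood adjusted p = 0.649). Reads at this place could come from either strand of the genome, and a library without strand information would not separate them.

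Levels of the mRNAs were compared per length, as CPM of the library total divided by the gene's length in kilobases (called level per length). The 7 protein genes that do not lie wholly inside the chromosome 1 stretch had mean levels per length of 1189 to 11744 over the 6 libraries, and the 6 inside it of 3.64 to 194. The lowest outside gene, mt-Nd6, stood 6.12-fold above the highest inside gene, mt-Co2. Going along the genome, mt-Co1 (11744) is followed by mt-Co2 (194), mt-Atp8 (3.64), mt-Atp6 (67.1), mt-Co3 (61.8), mt-Nd3 (5.09) and mt-Nd4l (16.6), and the level returns to 1509 at mt-Nd4, which is partly inside the stretch, and 2147 at mt-Nd5. The low levels thus cover the genes that lie wholly inside it. In the inside genes other than mt-Atp8, between 98.0% and 100% of all 50-base windows also occurred in a nuclear transcript, against 51.1% in mt-Co1, 62.2% in mt-Nd4, 8.19% in mt-Nd2, 7.61% in mt-Nd5 and 0% in mt-Nd1, mt-Nd6 and mt-Cytb. The level per length of an inside gene is therefore given as a count of assigned reads and not as the abundance of its mRNA.

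**Figure D2:**
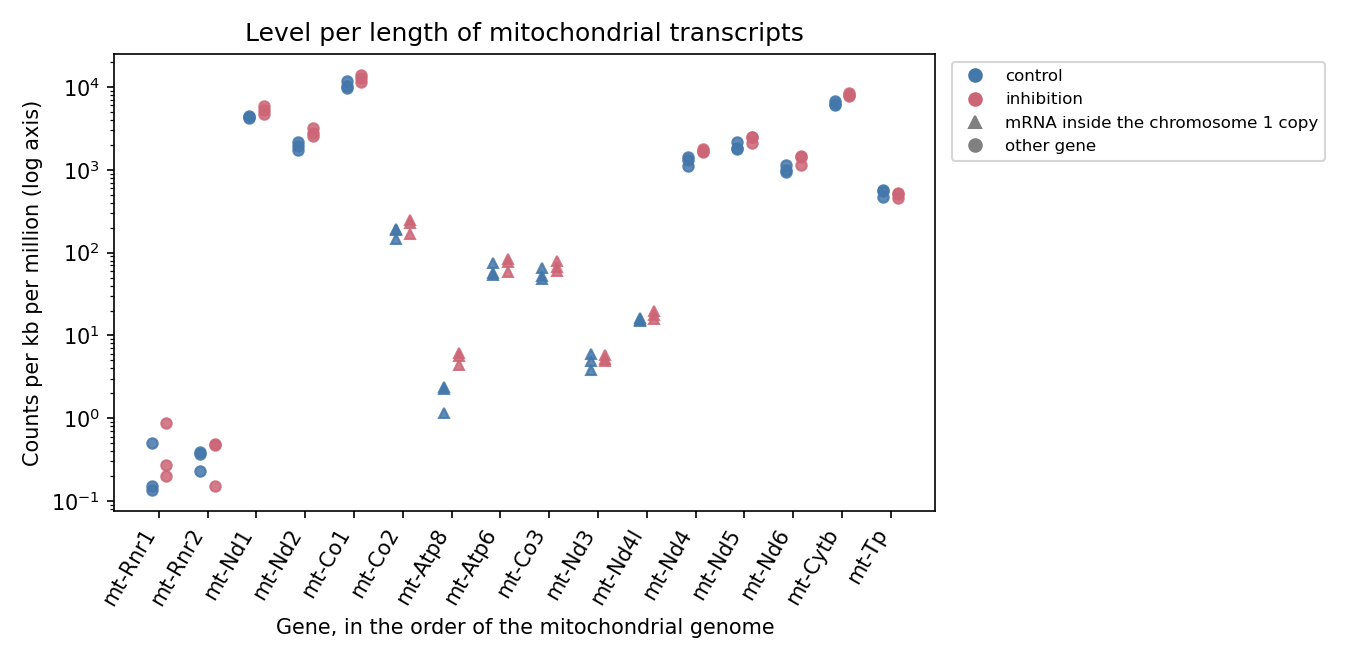
Level per length (CPM per kilobase, log axis) of the 2 rRNAs, the 13 mRNAs and mt-Tp, in genome order, 1 point per library. Triangles are mRNAs inside the stretch copied on chromosome 1 and lie between 1.17 and 249, circles of the other mRNAs between 952 and 14077; the rRNAs lie at or below 0.868.

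Counts were also assigned to the pseudogenes of chromosome 1. Because the sequences of a pair are nearly the same, whether such reads came from the copy or from the mitochondrial gene was not resolved. Gm10925, the copy of mt-Atp6 (chr1:24613974-24614651), held 7504 counts over the 6 libraries against 4870 of mt-Atp6, so that 57.8 ± 2.22 of every 100 counts of the pair fell on the copy in controls and 61.7 ± 4.28 under inhibition (SD, n = 3). Gm28661, the copy of mt-Co2, took 25.5 ± 1.10 and 25.6 ± 1.70 per 100 counts of its pair, and Gm28437, the copy of mt-Co3, 35.03 ± 2.11 and 33.5 ± 0.582. Gm28438, the copy of mt-Nd3, took most of its pair, at 79.8 ± 8.68 and 83.4 ± 6.16. Summed, the pairs stayed far below the neighbouring genes: mt-Co2 with its copy reached 135 to 232 CPM of the library total, where mt-Co1 with its copy reached 15110 to 21772. The 7 chromosome 1 pseudogenes together held 0.0162% ± 0.00180 of all counts in controls and 0.0209% ± 0.00394 under inhibition. Within pairs that the copy covers in part, Gm29216 took 0.117 ± 0.0209 and 0.105 ± 0.00645 per 100 counts shared with mt-Co1, and Gm28439 took 0.605 ± 0.0858 and 0.662 ± 0.0653 per 100 shared with mt-Nd4. The 9 copies outside chromosome 1 held 0 to 346 counts each, with Gm13340, a second copy of mt-Co1, the highest.

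Between the groups, the mitochondrial mRNAs had positive log2 fold changes under inhibition, but 0 of the 13 passed the edgeR test. The fit covered 15666 genes, of which 6 were called at an adjusted p under 0.05 (0.0383% of the genes tested; 0.0319% called higher and 0.00638% lower), and the 15 members that passed the filter on low counts included 0 of the 6. All 13 protein genes, mt-Rnr2 and mt-Tp were tested. mt-Atp8 passed the filter through its inhibition libraries alone (0 of 3 controls and 3 of 3 inhibition libraries were past the minimum) and is left out of the counts that follow. The other 12 protein genes all had a positive log2 fold change, from 0.12 to 0.53 with a median of 0.30, beside 0.0049 for the median of all genes tested, 51.0% of which were positive. In 8 of the 12 the unadjusted edgeR p was under 0.05 in the higher direction, a mark that 8.36% of all genes reached (7% reached it in the lower direction). Groups did not overlap in 4 of the 12, all higher (10.2% of all genes tested; 11% lower). DESeq2, run as an alternative, called 4 of the 12 higher (2.37% of its tested genes; 1.3% were called lower): mt-Nd2, mt-Nd4, mt-Nd6 and mt-Cytb. limma-voom called 0 genes of the whole table (2329 at an unadjusted p under 0.05). These mRNAs are cut from shared precursors and are not independent of each other.

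**Figure D3:**
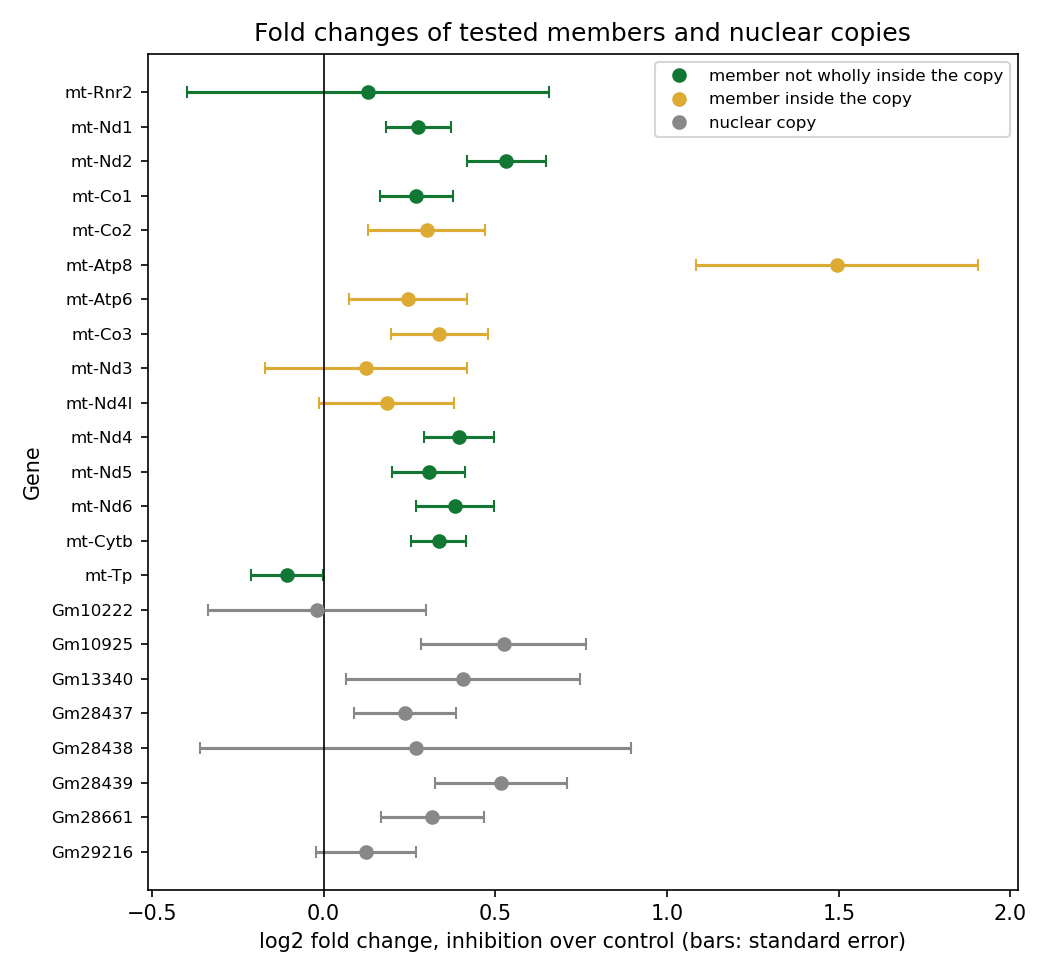
Log2 fold changes (inhibition over control) of the 15 tested members and of the 8 nuclear copies that passed the count filter, with standard errors as bars. Of the members, mt-Tp (-0.11) alone is below 0. The point of mt-Atp8 rests on 5 to 26 counts per library and on a filter passed through the inhibition libraries alone. It is plotted but not read as a result.

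Complex I, the NADH dehydrogenase, is the entry point of electrons and takes 7 of the 13 mitochondrial proteins. Its member mt-Nd2 (chrM:3914-4951), which encodes a subunit of the proton-pumping membrane arm, showed 1796, 2264 and 2027 CPM in controls and 3343, 2604 and 2853 CPM under inhibition. Every inhibition graft was above every control, and the log2 fold change was 0.53 (standard error 0.11, edgeR adjusted p = 0.162; DESeq2 adjusted p = 0.000774). For mt-Nd4 (chrM:10167-11544), a further subunit of the membrane arm, the controls stood at 1542, 2002 and 1856 CPM and the inhibition grafts at 2509, 2250 and 2339 CPM. These groups were also apart (log2 fold change 0.39, standard error 0.10, edgeR adjusted p = 0.178; DESeq2 adjusted p = 0.0126).

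mt-Nd1 (chrM:2751-3707), whose product joins the membrane arm to the peripheral arm, stood at 4305, 4123 and 4040 CPM in controls and 5092, 4420 and 5586 CPM under inhibition. Inhibition 2 came within a small step of control 1, but the groups did not overlap (log2 fold change 0.28, edgeR adjusted p = 0.233; DESeq2 adjusted p = 0.0966). mt-Nd5 (chrM:11742-13565), the largest of these subunits, gave 3204, 3954 and 3370 CPM in controls and 4605, 3805 and 4600 CPM under inhibition, with inhibition 2 below control 2 (log2 fold change 0.31, edgeR adjusted p = 0.243).

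mt-Nd6 (chrM:13552-14070) is the 1 mRNA read from the opposite strand. Its levels were 517, 594 and 500 CPM in controls and 750, 586 and 763 CPM under inhibition, again with inhibition 2 inside the control range (log2 fold change 0.38, standard error 0.11, edgeR adjusted p = 0.204; DESeq2 adjusted p = 0.0418). Per base, mt-Nd6 stood at 0.539 ± 0.0247 of mt-Nd5, its overlapping neighbour on the other strand, in controls and 0.565 ± 0.0218 under inhibition (SD, n = 3), and the ranges overlapped. As at mt-Tp, a library without strand information would not separate reads from either strand over mt-Nd6. The small complex I genes inside the copied stretch, mt-Nd3 and mt-Nd4l, held 26 to 39 and 68 to 112 counts per library. Their log2 fold changes were 0.12 and 0.18, with standard errors of 0.29 and 0.20 (edgeR adjusted p = 0.863 and 0.678).

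Complex III, which passes electrons to cytochrome c, has mt-Cytb (chrM:14145-15288), the cytochrome b gene, as its 1 mitochondrial member. It stood at 6947, 7824 and 7273 CPM in controls and 9411, 8721 and 9667 CPM under inhibition. Every inhibition graft was above every control here too (log2 fold change 0.33, standard error 0.08, edgeR adjusted p = 0.166; DESeq2 adjusted p = 0.00388).

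Complex IV, cytochrome c oxidase, hands the electrons to oxygen. Its catalytic subunit gene mt-Co1 (chrM:5328-6872) had more counts than any other gene in the table, summed over the libraries. Its levels were 14999, 18338 and 16094 CPM in controls and 20158, 17720 and 21735 CPM under inhibition. Inhibition 2 lay below control 2, so these groups overlapped (log2 fold change 0.27, standard error 0.10, edgeR adjusted p = 0.274; DESeq2 adjusted p = 0.154). The other members, mt-Co2 and mt-Co3, lie inside the copied stretch and had overlapping groups. mt-Co2 stood at 130, 128 and 100 CPM in controls and 173, 113 and 155 CPM under inhibition (log2 fold change 0.30, edgeR adjusted p = 0.432). mt-Co3 stood at 36.9, 50.8 and 41.0 CPM and at 62.6, 46.8 and 53.2 CPM (0.34, 0.306).

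Complex V, the ATP synthase, has both of its mitochondrial genes in the copied stretch. mt-Atp6, part of the proton channel, showed 50.7, 38.4 and 36.6 CPM in controls and 57.6, 39.2 and 52.3 CPM under inhibition, with overlap (log2 fold change 0.25, edgeR adjusted p = 0.516). mt-Atp8, a short stator subunit, held 8, 7 and 5 counts in controls and 13, 22 and 26 under inhibition. Because mt-Atp8 passed the count filter through its inhibition libraries alone, it is given as counts only. These are so low that no fold for the mRNA itself can be read from them.

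The shares of mitochondrial protein-gene counts, by complex, overlapped between the groups for all 4 complexes. These are shares of assigned reads and not of mRNA abundance, because genes inside the copied stretch add little. mt-Co1 alone held 45.6% in controls and 44.4% under inhibition, nearly all of complex IV. Complex I genes made up 33.4% ± 0.496 of the protein-gene counts in controls and 34.3% ± 0.855 under inhibition, and complex IV genes 46.1% ± 0.941 and 44.8% ± 0.947 (SD, n = 3; exact permutation p = 0.2 for each, 0.4 adjusted over the 4 complexes). Complex III stood at 20.4% ± 0.439 and 20.7% ± 0.773 (exact permutation p = 0.7, adjusted 0.9; n = 3), and complex V, whose genes both lie in the copied stretch, at 0.119% ± 0.0296 and 0.113% ± 0.0134 (exact permutation p = 0.9, adjusted 0.9; n = 3). Within complex I, mt-Nd2 took 5.36%, 5.76% and 5.73% of the protein-gene counts in controls and 7.24%, 6.46% and 5.97% under inhibition. Among the 12 protein genes other than mt-Atp8, mt-Nd2 alone had shares that did not overlap. Over all genes tested, the CPM of the groups did not overlap in 10.2% (higher) and 11% (lower). The shares of mt-Nd1 (10.5% to 12.8% in controls, 11.0% to 11.7% under inhibition) overlapped.

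The nuclear copies were tested in the same fit, on assigned reads whose origin in the copy or the mitochondrial gene was not tested. Gm28439, the copy of mt-Nd4, had a log2 fold change of 0.52 (edgeR adjusted p = 0.261), Gm28661 of 0.32 (0.352), Gm10925 of 0.52 (0.361) and Gm28437 of 0.24 (0.461). Values were 0.12 (0.709) for Gm29216, 0.27 (0.863) for Gm28438, 0.41 (0.587) for Gm13340 and -0.02 (0.984) for Gm10222. Of the 8 copies tested, 7 were positive and 1 was higher at an unadjusted p under 0.05 (8.36% of all genes). edgeR and DESeq2 called 0 of them.

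Nuclear genes for the same complexes were mostly negative. Of 83 tested nuclear subunits of complexes I to V, 54 had a negative log2 fold change and 29 a positive one, with a median of -0.07, beside 0.30 for the 12 mitochondrial protein genes. Over all genes tested, 48.99% were negative. edgeR called 0 of the 83 (unadjusted, 5 higher and 11 lower had p under 0.05, beside 8.36% and 7% of all genes). DESeq2 called 3, all lower (1.3% of its tested genes). Medians were -0.05 for 39 complex I subunits, -0.18 for 4 subunits of complex II (which has no mitochondrial gene), -0.10 for 9 of complex III, -0.03 for 14 of complex IV and -0.09 for 17 of the ATP synthase. The genes of smallest p were Ndufb1-ps (-0.38, edgeR adjusted p = 0.162; DESeq2 0.0383) and Ndufv3 (-0.31, 0.175; DESeq2 0.0456) of complex I, and Sdhb, the iron-sulfur subunit of complex II (-0.24, 0.186; DESeq2 0.0434). Sdhd, a membrane anchor of complex II, was at -0.26 (edgeR adjusted p = 0.228). In complex III, Uqcrq was at -0.19 (edgeR adjusted p = 0.286) and Uqcrb at 0.19 (0.298). In the ATP synthase list, Atp5g3, a ring subunit, was at -0.28 (0.227) and Atpif1, an inhibitor of the enzyme, at 0.34 (0.235). The nuclear genes that stood out on the higher side were Cox8b (1.66, edgeR adjusted p = 0.275) and Cox6a2 (1.27, 0.312), the complex IV isoforms of striated muscle.

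Set against each other in counts, the mitochondrial protein genes gave 2.58, 3.23 and 2.57 counts per count of the nuclear subunits of complexes I, III, IV and V in controls and 3.63, 3.20 and 3.92 under inhibition. Inhibition 2 fell just below control 2, so this ratio overlapped between the groups (means 2.79 ± 0.378 and 3.58 ± 0.365; SD, n = 3). The nuclear subunits themselves took 1.29% ± 0.0732 of all counts in controls and 1.252% ± 0.0303 under inhibition.

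**Figure D4:**
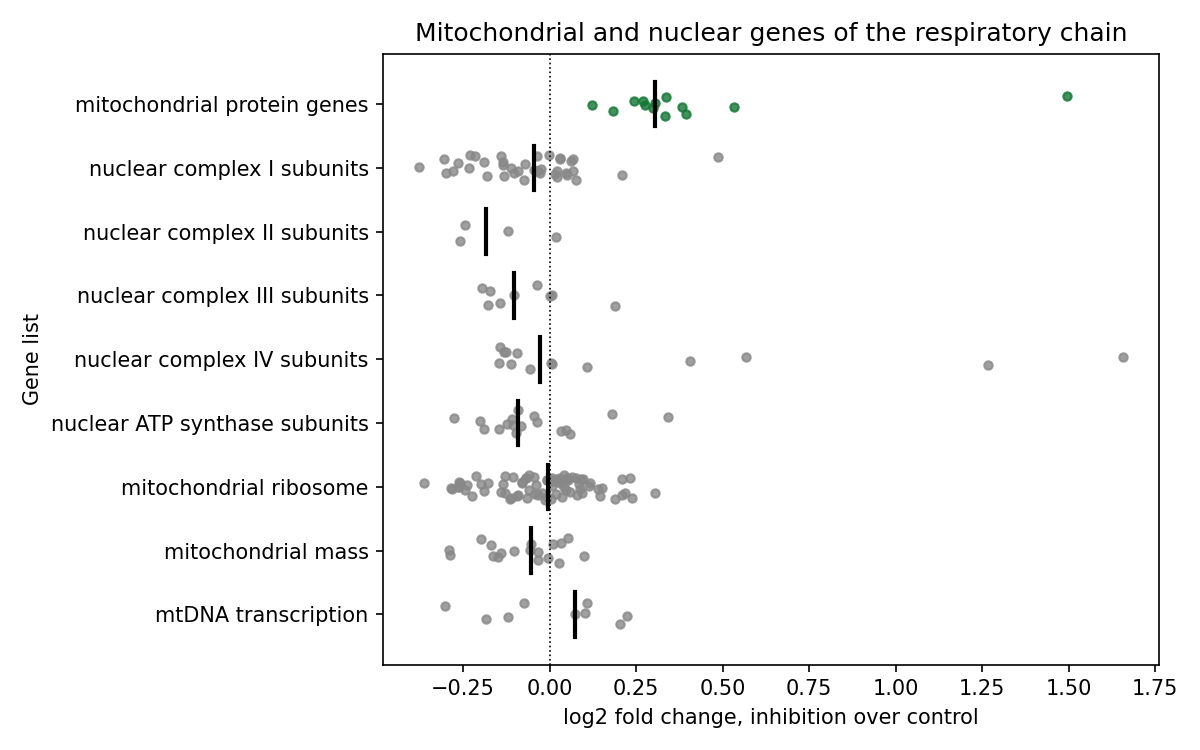
Log2 fold changes (inhibition over control) of single genes, 1 point per tested gene, for the 13 mitochondrial protein genes and for lists of nuclear genes that act in mitochondria; black bars are list medians. The mitochondrial genes lie to the right of 0, with mt-Atp8 among them although it passed the count filter through its inhibition libraries alone. Medians of the nuclear lists run from -0.18 (complex II) to 0.07 (mtDNA transcription).

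The nuclear machinery that copies, transcribes and processes the mitochondrial genome showed small differences in both directions, with 0 genes called by edgeR or DESeq2 in the lists of this paragraph. Of 9 transcription genes, 5 were positive, and 1 in each direction had an unadjusted p under 0.05. Over all genes tested, 8.36% were higher and 7% lower at that mark, and both shares also stand beside the unadjusted counts below. Polrmt, the mitochondrial RNA polymerase, had a log2 fold change of 0.23 (edgeR adjusted p = 0.281) and Tefm, its elongation factor, -0.30 (0.323). Tfam, which packages the genome and opens its promoters, stood at -0.12 (0.464), and Twnk, the replicative helicase, at 0.12 (0.494); 0 of 9 replication and packaging genes reached an unadjusted p under 0.05. Lrpprc, which binds and stabilises mitochondrial mRNAs, was at -0.02 (0.917), and of 21 genes for RNA stability and decay 2 were lower at an unadjusted p under 0.05, namely Grsf1, a protein of the mitochondrial RNA granules (-0.22, 0.255), and Rcc1l (-0.27, 0.312).

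In the lists for processing and translation, too, edgeR and DESeq2 called 0 genes. Unadjusted counts in these lists stand beside 8.36% of all genes tested higher and 7% lower. For cleavage of the precursors and tRNA ends, 4 of 5 genes were negative, with Trnt1, which adds the CCA end to tRNAs, at -0.22 (edgeR adjusted p = 0.326), Hsd17b10, a subunit of the RNase that cuts tRNA 5′ ends, at -0.20 (0.332), and 0 at an unadjusted p under 0.05. For rRNA modification and ribosome assembly 12 of 16 were negative (2 lower unadjusted; Malsu1 -0.30, 0.273; Mpv17l2 -0.26, 0.304), for tRNA modification and charging 17 of 35 (1 lower; Trit1 -0.29, 0.310; Iars2 -0.21, 0.336) and for translation factors 3 of 9 (0 unadjusted; Gfm2 0.17, 0.437; Mtrf1 -0.25, 0.502). The mitochondrial ribosome list had 40 negative of 79 tested, 5 higher and 9 lower unadjusted, and 0 called by edgeR or DESeq2, led by Mrpl2 (-0.28, 0.186) and Mrpl30 (-0.23, 0.198).

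Of 18 genes used as measures of mitochondrial mass (matrix enzymes, membrane channels and import), 13 were negative, beside 48.99% of all genes, with a median of -0.05. At an unadjusted edgeR p under 0.05, 5 were lower, beside 7% of all genes. edgeR called 0 and DESeq2 called 1 (1.3% of its tested genes lower), Vdac3, a channel of the outer membrane (-0.29, edgeR adjusted p = 0.166; DESeq2 0.0278). Vdac1, a related channel, was at -0.20 (0.244). Cs, the gene of the matrix enzyme citrate synthase, was at 0.0088 (0.968). All these values are mRNA levels, and mitochondrial content itself was not measured. Of 9 tested regulators of mitochondrial biogenesis, Esrrg, a nuclear receptor abundant in oxidative muscle, passed the count filter through its inhibition libraries alone and is given as levels only, 0.260 to 0.422 CPM in controls and 0.762 to 2.03 CPM under inhibition. Of the other 8, 5 were positive and 1 was higher at an unadjusted p under 0.05 (8.36% of all genes), with 0 called by edgeR or DESeq2. Ppargc1b was at 0.51 (edgeR adjusted p = 0.224), and Ppargc1a, the coactivator known as PGC-1 alpha, had 143 to 274 and 244 to 336 CPM (0.31, 0.616).

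Markers of other tissues also differed between these libraries. Of 26 skeletal muscle markers 25 were tested, all positive (median log2 fold change 1.29). At an unadjusted edgeR p under 0.05, 16 were higher, edgeR called 0 and DESeq2 called 13, with 0 of the 26 at 0 counts in all libraries. Over all genes tested, 8.36% were higher at an unadjusted p under 0.05. DESeq2 called 2.37% of its tested genes higher, and both shares also stand beside the marker lists below. Summed fibroblast markers ran from 0.0764% to 0.111% of all counts in controls and from 0.134% to 0.169% under inhibition, and in the same order squamous epithelium markers from 0.137% to 0.298% and from 0.172% to 0.532%, macrophage markers from 0.0159% to 0.0266% and from 0.0233% to 0.0279%, and neutrophil markers from 0.00378% to 0.00979% and from 0.000863% to 0.00313%. Endothelial markers ran from 0.0157% to 0.0269% in controls and from 0.0299% to 0.0335% under inhibition. The sums of the endothelial, muscle, fibroblast and neutrophil markers did not overlap between the groups. Of the endothelial markers 8 of 8 were positive, 4 were higher at an unadjusted p under 0.05, edgeR called 0 and DESeq2 called 2. All 10 fibroblast markers were positive, with 9 higher unadjusted, 0 called by edgeR and 6 by DESeq2. Of 8 neutrophil markers that passed the filter in both groups, 8 were negative, with 4 lower unadjusted (7% of all genes) and 2 called lower by DESeq2 (1.3%). Of 10 macrophage markers 8 were positive and 4 were higher unadjusted, with 0 called by edgeR and 1 by DESeq2. All 10 melanoma markers were detected, at 2.38% to 3.12% in controls and 3.09% to 3.52% under inhibition. Taking as muscle level the mean log2 CPM of the 25 markers less its control mean, the controls had muscle levels of -0.48, 0.68 and -0.20 beside mitochondrial shares of 3.38%, 3.92% and 3.50%. The inhibition grafts had muscle levels of 1.70, 1.53 and 0.73 beside shares of 4.55%, 4.09% and 4.79%. In the controls the order of the shares was that of the muscle levels; under inhibition the graft with the lowest muscle level had the highest share. In a fit that carried this muscle level as a covariate, the median of the 7 protein genes not wholly inside the copy was 0.27, against 0.33 without it. Of these 7, 1 then had an unadjusted p under 0.05, against 7 before. Over all genes tested the number under 0.05 also fell, from 2407 to 470 of 15666. Muscle level itself did not overlap between the groups (at most 0.68 in controls, at least 0.73 under inhibition), so this fit cannot well separate it from group. Single genes moved in both directions. The values went from 0.53 to 0.27 for mt-Nd2, from 0.39 to 0.17 for mt-Nd4, from 0.31 to 0.17 for mt-Nd5 and from 0.34 to 0.0018 for mt-Co3, and were larger for mt-Nd1 (from 0.28 to 0.42), mt-Atp6 (from 0.25 to 0.47) and mt-Nd4l (from 0.18 to 0.26). The edgeR adjusted p in this fit was 0.9998 for every tested member. The part of the other tissues in these values was not tested beyond this fit.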

How the data were processed

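Whole-graft RNA was measured by sequencing in 6 libraries. The table the authors deposited holds unnormalised counts for Ensembl gene IDs. HISAT2 2.0 and mm10 appear in the labels, per the submitters' processing notes. How reads were counted (program, annotation, strand, reads with several matches) is not given in the sources used here. Columns were matched to samples by name; the treated columns speak of denervation, the titles of inhibition. Unused columns of sample values numbered 0. Symbols matched 55141 of 55487 IDs, and coordinates, lengths and transcript sequences came from GENCODE M21 on GRCm38.

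Members, lists and tests were chosen with earlier results of these data known. Genes were kept with filterByExpr (count minimum 10, total minimum 15), scaled with TMM, and tested with the quasi-likelihood test of edgeR 4.0.16 (R 4.3.3) over all 15666 genes, called at a Benjamini-Hochberg adjusted p under 0.05; the standard error is the absolute log2 fold change over the square root of F. Shares of counts were tested by exact permutation (scipy 1.17.1). Copies were sought with blastn 2.17.0 (identity at least 90%, at least 50 bases, at least 50% of the nuclear transcript). The fit was also run on simulated counts in which genes varied independently of each other. The outcome is not used as support here. Named genes were all members, the 2 genes of smallest p in each pathway list (the called ones, had there been any), nuclear copies with at least 100 counts, and Tfam, Polrmt, Ppargc1a, Lrpprc, Cs, Acta1, Ckm, Pmel and Dct. The last 4, measures of tissue content, had log2 fold changes of 1.11, 1.28, 0.27 and 0.10 (edgeR adjusted p = 0.186, 0.393, 0.514 and 0.646). The ratio to nuclear subunits was added after the values were seen. Alternatives were RLE and upper-quartile factors, TMM from nuclear genes alone, other filters, limma-voom 3.58.1, DESeq2 1.42.0, a replicate block, a muscle covariate, other denominators, an adjusted p under 0.1 and each library left out.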

Additional observations from a re-analysis of the deposited data

How the results depend on the processing

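The difference in mitochondrial share was 0.957 percentage points against nuclear counts and 0.963 without muscle markers and the 20 most abundant nuclear genes. It was 0.886 with the nuclear copies added and 0.726 to 1.07 with 1 library left out. Leaving out 1 library could not change its direction, because the groups did not overlap. Taking muscle markers out changed the denominator only, so mitochondrial reads of muscle stayed in the share. The muscle covariate was fitted to single genes and not to the share. The number of genes called among all genes, 6, was 1187 with no filter, 0 with limma-voom (2329 at an unadjusted p under 0.05), 541 with DESeq2, 14 with the replicate block, 0 with the muscle covariate (470 unadjusted), 33 at an adjusted p under 0.1, and 0 to 217 with 1 library left out (0 without control 3, inhibition 1 or inhibition 2, 11 without control 1, 24 without control 2 and 217 without inhibition 3); the cause was not tested. Of the members, edgeR with no filter called mt-Nd2, mt-Co2, mt-Co3, mt-Nd4, mt-Nd5, mt-Nd6 and mt-Cytb higher. That run called 748 genes higher and 439 lower in all. The number of genes tested without a filter is not given here, so these calls cannot be set against a share of all genes and are not read as a result. Whether replicate numbers pair the samples is not stated, and correlations between libraries do not settle it. They were -0.180, 0.327 and 0.0865 for same-numbered libraries and ran from -0.3863 to 0.2955 for the others. The paired difference in share was 0.881 points with p = 0.25 (exact sign-flip test, the smallest it can give). With 1 library left out, values that changed sign were the rRNA share (-4.14e-06 to 5.38e-05 points), complex III (-0.0956 to 0.611 points), complex V (-0.0155 to 0.0114 points), mt-Nd3 (log2 fold change -0.0283 to 0.27) and mt-Rnr2 (-0.15 to 0.52). mt-Rnr2 was also -0.0315 with limma-voom and -1.14 with the muscle covariate. Leaving out 1 library also moved these by over 1.5 times with no change of sign: the differences in complex I share (0.441 without inhibition 1 to 1.21), complex IV share (-1.82 to -0.773 without control 2) and tRNA share (-0.000446 without control 3 to -9.05e-05 without inhibition 2; -0.000105 without control 2), and the log2 fold changes of mt-Co2 (0.16 to 0.45), mt-Atp6 (0.12 to 0.40), mt-Co3 (0.21 to 0.46), mt-Nd1 (0.18 to 0.35), mt-Nd4l (0.10 to 0.24) and mt-Tp (-0.19 to -0.05). Low counts limit the rRNAs, the tRNAs and the genes inside the copied stretch.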
